A study of Homo sapiens with 16 samples.

Results

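NCI-H1703 (H1703 below) is an established human lung cancer cell line, and its 2 arrays, H1703 2D and H1703 3D, are described here beside the 14 arrays of 7 other lung cancer lines (A427, A549, H23, H358, H460, H661 and H1437). The 2 arrays were found by their titles, among 16 in all. In 2D the untreated cells grew on tissue culture plastic. In 3D they grew on a thin layer of Matrigel, a basement membrane extract, under medium holding 2% Matrigel, and both cultures were kept at a similar density in similar media. Each line gave 1 array per culture, so a 3D minus 2D difference within H1703 has no replicate, and the spread over the 7 other lines is the only error that can be set beside it. All lines are cultures of single cell types without stroma, vessels or leukocytes, and H1703 stands here for 1 tumour.

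The line is known for dependence on the receptor tyrosine kinase PDGFRA. Such receptors bind growth factors outside the cell (PDGF ligands for PDGFRA) and signal inside it through the ERK and PI3K pathways, whose feedback genes (the DUSP and SPRY families) are often used as a readout. Carcinoma lines differ in how much of the epithelial programme (E-cadherin, keratins, tight junctions) they keep. Cells in 3D culture are often reported to switch on genes of the hypoxia response, which is driven by hypoxia-inducible factors and covers glucose uptake, glycolysis, mitochondrial turnover and collagen hydroxylation.

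Every value is a log2 ratio to a reference of the probe set's own. In 63.5% of probe sets that reference was about the median over the 16 arrays, so 0 means about the typical array of this series there. In the rest the median lay under the reference. Arrays can be compared gene by gene, but levels of different genes cannot. A gene's value is the mean over its probe sets that are not dim, a dim probe set being one whose median lies under its reference, and 14113 genes had such a value. The lowest ratio in the files is 0.01 (-6.64 on the log2 scale), so a difference that rests on it is a lower bound. The median over all probe sets was -0.07 in H1703 2D, the highest of the 16 arrays, and -0.08 in H1703 3D, against a lowest of -0.28. The median of H1703 minus the other lines over all tested genes was 0.11. Differences between H1703 and the other lines are to be read against that shift, which was 0.00 after each array was centred on its median. Arrays carry no read depth, and their number limits the precision.

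H1703 minus the other lines is the mean of its 2 arrays minus the mean of the 7 other line means. Over 14113 genes, 300 were at least 4-fold higher in H1703 by that measure and 438 at least 4-fold lower. The same counts for the other 7 lines ran from 263 to 640 and from 287 to 586. Both H1703 arrays lay above all 14 others in 904 genes (6.41% of tested genes) and below all 14 in 311 (2.20%). After each array was centred on its median these counts were 672 and 483, so the share above went from 74.4% to 58.2%. With quantile normalisation they were 814 and 691 (54.1% above). The test of H1703 against the spread of the 7 line means (limma, Benjamini-Hochberg adjusted p under 0.05) called 0 genes (0% of 14113), with 577 at an unadjusted p under 0.05. Without a variance trend it called 4. The lowest adjusted p was 0.0837, shared by PADI2 (4.81 higher), PCDH10 (3.35 higher), THEM4 (-5.07) and TIMM13 (-4.50). The identity values below are therefore descriptions of this line's 2 arrays, and the genes named first are the 12 highest and 12 lowest of those with both arrays outside the range of the others and all probe sets of 1 sign.

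PDGFRA was the highest of them. Its value was 7.72 in 2D and 8.04 in 3D. In the 14 other arrays the lowest was -0.16, the median -0.03 and the highest 5.19. Both H1703 arrays thus lay above every other array, and the only other line well above the reference was H661, at 2.37 in 2D and 5.19 in 3D. H1703 exceeded the mean of the other lines by 7.30 (SD over those lines 1.43). Its 2 probe sets differed by 4.31 and 10.29, and with dim probe sets averaged in the difference was 3.68.

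Of the ligands of the PDGF receptors, PDGFB and PDGFC were also above all other arrays. PDGFB, which binds both PDGF receptors, was 4.30 in 2D and 3.88 in 3D, above a highest other value of 2.29. PDGFC, a ligand of PDGFRA, was 3.45 and 3.29, above a highest other value of 2.25. PDGFA differed from the other lines by 0.26, and PDGFD, which is dim, by -0.89 and -0.11 on its 2 probe sets. PDGFRB, the second receptor, differed by -0.06. Of 22 tested receptor kinases and ligands, 3 lay above all 14 others and 1 below, with a median difference of 0.38. The gene below was IGF1R, the receptor of insulin-like growth factors, at -4.11 in 2D and -3.57 in 3D against a lowest other value of -1.88, and all 4 of its probe sets were lower (-4.44 to -2.89). FGFR1 differed by 1.76, but A427 reached 1.76 and the 3D array of H1703 only 1.53, and its 7 probe sets spread from -0.04 to 3.28.

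Of 26 tested genes that report ERK pathway output, 6 were at least 2-fold lower and 3 at least 2-fold higher, with a median difference of -0.09. Over all 14113 tested genes, 1054 were at least 2-fold lower and 1441 higher, with a median of 0.11. In the list, 1 gene was above all others (SPRY4, a feedback inhibitor, 2.15 and 1.43) and 1 below (DUSP6, an ERK phosphatase, -4.46 and -3.49). The shares over all tested genes were 6.41% above and 2.20% below. DUSP4, a related phosphatase, differed by -5.42, but lines with equally low values exist (lowest other -6.64). The cyclins of the G1 phase differed from each other. CCND1, cyclin D1, was -2.50 in 2D and -2.51 in 3D, a difference of -2.52, while CCND2, cyclin D2, is dim in the series and was not tested. On its most different probe set CCND2 stood at 9.998 and 9.61 in H1703, with a median of -0.57 in the others, and only 2 of those 14 arrays reached the reference, the highest at 9.56. CDKN2A, which encodes the p16 inhibitor of the cyclin D kinases, was 2.95 and 2.63 in H1703, above all others (highest 2.08), but its 3 probe sets gave 0.10, 4.13 and 5.51.

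Among the other genes with both arrays far above the rest, INA, an intermediate filament protein of neurons, was 3.58 in 2D and 2.80 in 3D, with the others between -6.64 and 1.81. NEFH, the heavy neurofilament protein, was 5.96 and 6.07, with the others up to 4.35 (A427). NEFL, the light neurofilament protein, differed by -2.62, and the axon guidance and neural adhesion list had a median of -0.61, with 3 of 19 tested genes at least 2-fold higher and 8 at least 2-fold lower. THY1, a surface glycoprotein of neurons, fibroblasts and T cells, was 5.87 and 5.25, and H661 was again the next line, at 3.63 and 3.61. HMOX1, haem oxygenase, was 4.88 and 5.02, against a highest other value of 2.39. MAGEA1, a cancer-testis antigen, was 5.44 and 5.36 against 2.70. The homeobox gene HOXC10 was 6.10 and 5.83, narrowly above H23 at 5.67. The remaining 6 of the 12 were PLBD1 (6.84 above the mean of the others), TSPYL5 (5.77), the protocadherin PCDHB6 (5.62), ZNF667-AS1 (5.49) and ARMCX1 (5.07), besides PDGFRA itself. The next highest line was H661 for 6 of these 12 genes: PDGFRA, PLBD1, TSPYL5, INA, ZNF667-AS1 and THY1.

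At the low end, LGALS3, galectin-3, a lectin of the cell surface and cytoplasm, stood at -6.64 in 2D, the lowest ratio the files hold, and at -5.83 in 3D. The lowest of the 14 others was -1.72 and the highest 4.86, a gap of 4.11 between H1703 and the nearest array. The LGALS3 difference was -8.01, and -4.82 with its dim probe sets averaged in. ME1, malic enzyme, which makes NADPH in the cytosol, was -6.26 and -6.23, with the others from -2.66 to 3.39, and its difference of -6.83 became -4.47 with dim probe sets averaged in. FXYD5, a regulator of the sodium pump that loosens cell adhesion, was -6.64 and -6.23, against a lowest other value of -1.48. S100A11, a calcium-binding protein, and SAT2, MEST and CRIP1 were at the lowest ratio in both H1703 arrays. CHCHD10, a mitochondrial protein, was -6.64 and -5.57 while all 14 others lay between -1.10 and 0.89. GLRX, glutaredoxin, was -5.20 and -4.64, and CPS1, the mitochondrial enzyme that starts the urea cycle, -6.13 and -5.91. TCIM and CHMP4C complete the 12.

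**Figure D1:**
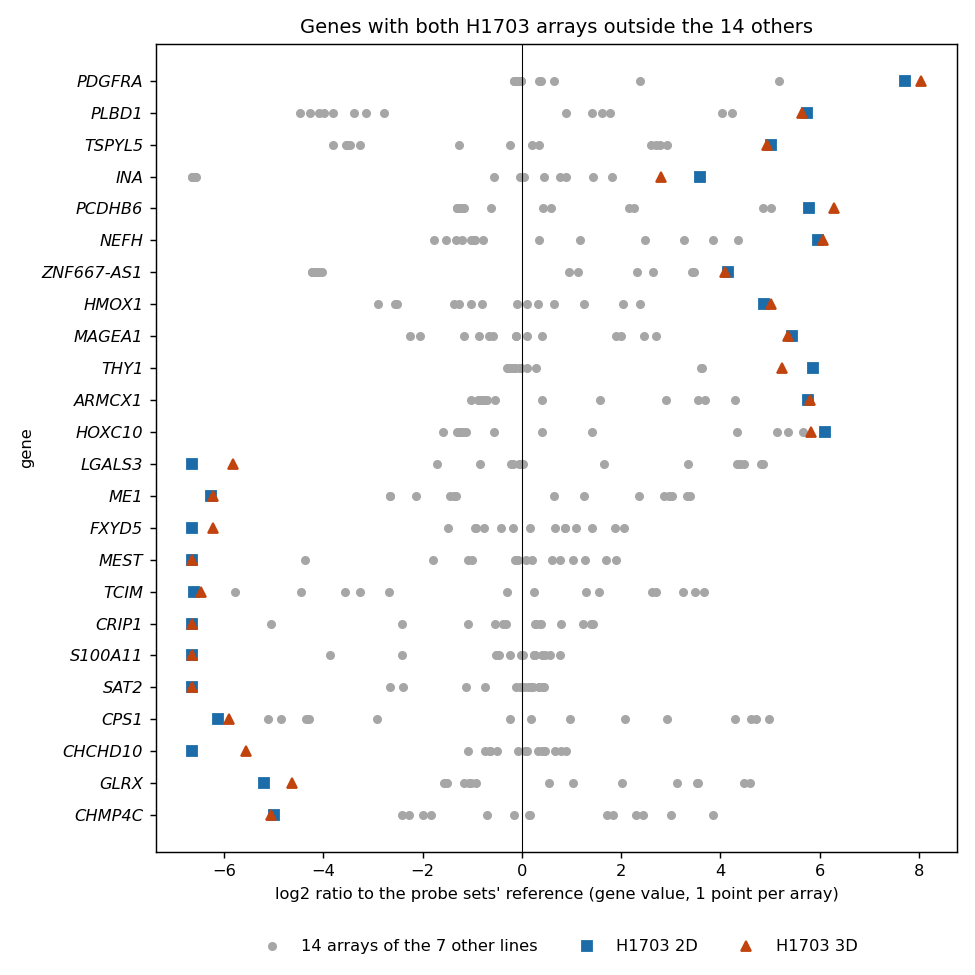
The 12 highest and 12 lowest genes among those with both H1703 arrays outside the range of the other lines. Each row is a gene and each point the log2 ratio of 1 array: squares for H1703 2D, triangles for H1703 3D and grey circles for the 14 arrays of the other 7 lines. PDGFRA lies at 7.72 and 8.04 with the next array at 5.19, and LGALS3 at -6.64 and -5.83 with the nearest array at -1.72.

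Epithelial genes were low as a group. Of 28 tested genes of epithelial junctions and keratins, 18 were at least 2-fold lower in H1703, 2 were at least 2-fold higher, and the median difference was -2.03, against 0.11 over all tested genes. KRT18, a keratin of simple epithelia, was -5.52 and -5.71, below all others (lowest -4.62). DSG2, a desmosomal cadherin, was -2.63 and -2.20, below a lowest other value of -1.99. These were the only 2 of 28 below all 14 arrays. CDH1, E-cadherin, was -4.37 and -4.32, a difference of -5.53, with H460 as low (-4.61 and -4.33). EPCAM, an epithelial adhesion molecule, differed by -5.80, and H460 and A549 2D were at least as low. KRT8, the partner of KRT18, differed by -5.50 and KRT19 by -5.77. Both arrays of H661 lay at or below H1703 in KRT8. In KRT19, A427 (-3.79 and -3.90) and H661 (-3.86 and -3.97) were as low as H1703 (-3.74 and -3.87). PKP2, a desmosomal plaque protein, went the other way, 1.88 higher.

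The mesenchymal list was not high in turn: 5 of 21 tested genes were at least 2-fold higher and 9 at least 2-fold lower, with a median of -0.53. The transcription factors ZEB1 (2.17), TWIST1 (2.40) and TWIST2 (2.22) and the surface protein THY1 (5.13) were higher than the mean of the others, and of these only THY1 lay above all arrays. Vimentin, VIM, differed by 0.86. FN1, fibronectin, differed by -2.66, the calcium-binding protein S100A4 by -5.44 and the matrix protein TGFBI by -5.28, with both H1703 arrays of TGFBI at the lowest ratio.

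**Figure D2:**
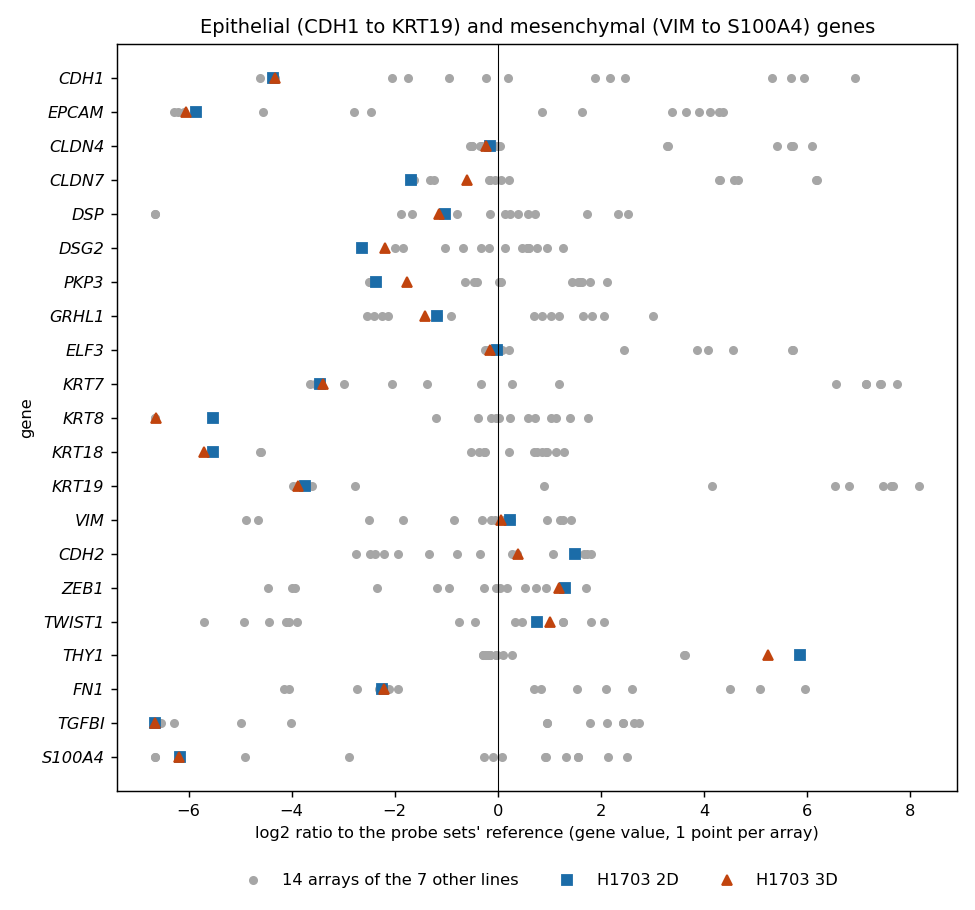
Epithelial genes (CDH1 to KRT19) and mesenchymal genes (VIM to S100A4), with the log2 ratio of each array on the horizontal axis. Squares are H1703 2D, triangles H1703 3D and grey circles the 14 arrays of the other lines. KRT18 and DSG2 lie below every other array, THY1 above every other array, and CDH1, EPCAM, KRT8 and KRT19 share their low end with other lines.

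The labels call the cells lung cancer cells, and markers of airway, squamous, neuroendocrine and non-epithelial cells were set beside that. The surfactant gene SFTPB differed by -0.03, and it spanned only -0.12 to 0.41 over the other arrays. NKX2-1, the factor of alveolar cells, differed by -0.95 and MUC1 by -1.95, while LAMP3 was above all others (4.48 and 4.38, highest other 4.34). SOX9, a factor of the distal lung bud, was below all others (-3.63 and -4.06). Of 14 tested alveolar and airway genes, 1 was at least 2-fold higher and 4 at least 2-fold lower, with a median of -0.51. Of 8 tested squamous genes, 1 was at least 2-fold higher and 2 at least 2-fold lower, with 0 above all others and a median of -0.14. SOX2 stood at 4.33 and 4.41, below a highest other value of 7.10. KRT5 and DSG3, which are dim, did not reach the reference in any of the 16 arrays. Of 9 tested neuroendocrine genes, 2 were at least 2-fold higher and 4 at least 2-fold lower, with none above all others and a median of -0.02. CHGB, a secretory granule protein, differed by 2.27 and SYP, synaptophysin, by 0.44. Of 9 tested fibroblast and pericyte genes, PDGFRA and THY1 lay above all others, 4 were at least 2-fold lower, among them COL1A1 (-1.86) and COL3A1 (-3.67), and the median was -0.86. The leukocyte gene PTPRC differed by 0.04, LAPTM5 by -0.32 and CD53 by 0.46, the last above all others. The endothelial genes PECAM1 and TEK differed by -0.01 and 0.01. Of 18 tested genes of HLA class I and peptide loading, 12 were at least 2-fold higher and 5 above all others, with a median of 1.14. Over all 14113 tested genes, 1441 were at least 2-fold higher, 6.41% lay above all others and the median was 0.11. The members above all others were HLA-E, TAP2, TAPBP, PSMB9 and ERAP2, the last, an aminopeptidase that trims peptides in the endoplasmic reticulum, at 4.64 and 5.07. SMARCA4, an ATPase of the SWI/SNF complex that remodels nucleosomes, was 0.43 and 0.11, with A427 lowest at -3.26. Its 7 probe sets gave -0.13 to 0.66, so its sign turned with the probe set chosen. SMARCA2, the alternative ATPase, was -2.51 and -2.37, with another line at -3.46, and its difference of -2.04 became -1.04 with dim probe sets averaged in.

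Genes were then put in their chromosomal order and the median of H1703 minus the other lines was taken over each run of 11 neighbouring tested genes. Over 13840 such runs the median was 0.12, and the lowest and highest percentiles were at -0.78 and 1.06. The run with the highest median, 2.43, held FGFR1 on the short arm of chromosome 8: all 11 genes from LSM1 to ADAM9 were higher in H1703 and 8 of them lay above all 14 arrays. In the other lines the same run had a median between -0.98 and 0.46. Of 18 tested genes listed as FGFR1 neighbours, 13 lay above all others (against 6.41% of all tested genes), with a median of 2.09. TM2D2 was 3.13 in 2D and 2.99 in 3D, with the others from -1.74 to 1.82. DDHD2, a phospholipase, differed by 2.95 and lay above a highest other value of 1.14. NSD3, a histone methyltransferase, was 2.47 and 2.37 with the others up to 0.85. BAG4, a cochaperone, differed by 2.79, PLEKHA2 by 2.95 and TACC1 by 2.43. LETM2, within the same run, differed by 0.04, and ZNF703 at one edge by -0.05. FGFR1 itself, at 1.76, was neither the highest of the run nor above all arrays.

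**Figure D3:**
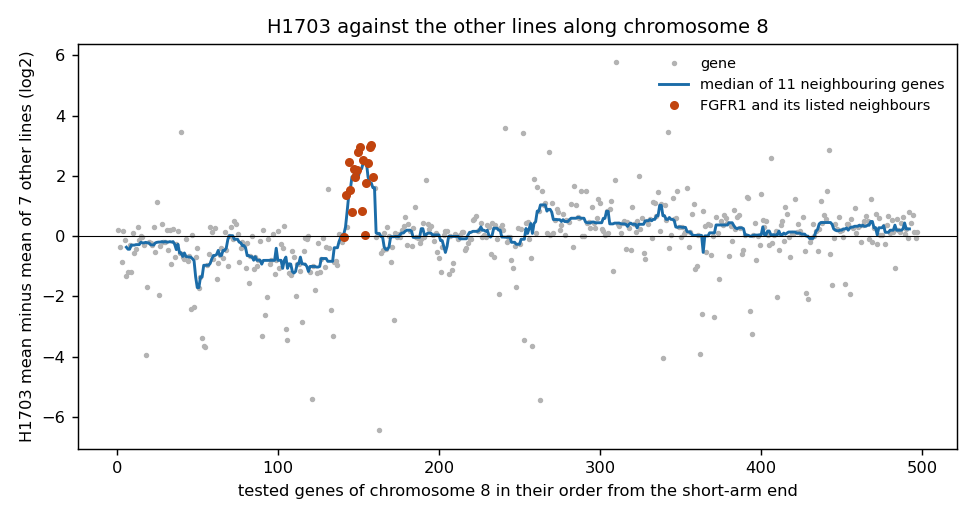
H1703 minus the mean of the other 7 lines (log2, vertical axis) for the tested genes of chromosome 8, set out in their order along the chromosome with equal spacing. Grey points are genes, the line is the median of 11 neighbouring genes, and red points are FGFR1 and its listed neighbours. The line peaks at 2.43 near FGFR1 and lies at -1.71 in the run from VPS37A to CSGALNACT1 nearer the end of the short arm.

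The listed neighbours of PDGFRA did not lie above all others. Of 13 tested genes in that list, only PDGFRA itself did, and the median was 0.21. Including PDGFRA, 3 were at least 2-fold higher and 1 at least 2-fold lower, against 1441 and 1054 of 14113 tested genes. FIP1L1 and CHIC2, which lie near PDGFRA, differed by 1.07 and 1.16, and LNX1 by -1.29. KIT and KDR are dim and were not tested. The second run, on chromosome 5 from TRIO to CDH18, had a median of 2.08, with 10 of 11 genes higher and 5 above all others. TRIO was 2.52 and 2.06 there, and the exception was MYO10, a filopodial myosin, below all others. That run was part of a longer stretch. Runs centred from EXOC3-AS1, near the start of the chromosome, to MRPS30 all had medians of at least 0.27, against 0.12 over all runs. The run from CPLANE1 to PRKAA1, also on chromosome 5, had a median of 1.38. The third run held MAGEA4, MAGEA1 and other genes of the X chromosome (median 1.45, and 1.18 in H1437). The lowest run, on chromosome 4, held the neutrophil chemokines CXCL8, CXCL1, CXCL3 and CXCL2 and the EGF receptor ligands EREG and BTC, with a median of -2.25. CXCL1 was -5.27 and -4.92 and CXCL2 -3.02 and -2.95, both below all others, while in CXCL8 (-5.69 and -5.70) another array was lower, at -6.15. H661 also had a low median in that run (-1.43). The next lowest runs were on chromosome 8, VPS37A to CSGALNACT1 (-1.71), and chromosome 2, SERPINE2 to PID1 (-1.53). No DNA copy number was measured here.

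Genes with only dim probe sets were left out of the tests. Among them 21 had a probe set with both H1703 arrays at least 4-fold above the reference and above all 14 others. ITGA4, the alpha-4 integrin that binds VCAM1 and fibronectin, was 3.27 and 3.12 on its most different probe set, and none of the 14 others reached the reference (highest -0.83). SPESP1 was 4.66 and 5.49 with the others up to 0.20. FAR2, which makes fatty alcohols, was 4.55 and 4.61 with the others up to 0.86. NID1, nidogen, a linker of laminin and collagen IV in basement membranes, was 5.05 and 5.66 on the probe set that met this rule, with the others up to 4.57. On another probe set it was 8.30 and 9.42, and there another array reached 8.37.

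The response to Matrigel was taken as 3D minus 2D. H1703 was among the lines that moved least. In H1703, 177 genes (1.25% of 14113) were at least 2-fold higher in 3D and 140 (0.992%) at least 2-fold lower, 317 together. A427 had 153, and the other 6 lines between 539 and 1053. The SD of the difference over genes was 0.39 in H1703, 0.31 in A427 and up to 0.56 in H661. The 2 H1703 arrays correlated at 0.90 over genes. Of all 14113 tested genes, 6167 (43.7%) were higher in 3D in H1703 by any amount. Counts of list members below are to be read against that share, and at 2-fold against 1.25% higher and 0.992% lower. The 18S ribosomal RNA control was lower in 3D by 0.94 in H1703, and lower in each of the other lines by 0.08 (H1437) to 3.45 (H23). With the 18S level as a covariate, limma called 0 genes for the H1703 difference, as without it, and 0 for the response of the other lines (1189 at an unadjusted p under 0.05), where 17 were called without it.

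The test of whether the H1703 difference lies outside the spread of the other 7 (limma, interaction of culture and line, Benjamini-Hochberg) called 0 genes (0% of 14113), with 388 at an unadjusted p under 0.05. The differences below are therefore values of 1 pair of arrays, and "higher" and "lower" describe that pair. Over genes, the H1703 difference correlated at 0.37 with those of H23 and H661, 0.28 with H460, 0.24 with H358, 0.19 with A427, 0.18 with A549 and 0.07 with H1437. These are descriptions across 14113 genes of 1 pair of arrays per line, and genes are not independent replicates. Of the 177 genes higher in H1703, 158 were also higher on average in the other lines, 35 in all 7 of them, and in 90 H1703 moved more than any other line. Of the 140 lower genes, 103 were lower on average in the others and 19 in all 7. Both sets were chosen by the size of the H1703 difference, which by itself favours H1703 lying beyond the other lines. The same shares over all tested genes were not counted, so these counts are descriptions only. All probe sets had 1 sign in 49 of the 49 higher genes with several probe sets and in 51 of 53 lower ones.

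A set of culture genes chosen without H1703 came from a fit of 3D against 2D on the 7 other lines. It called 17 genes (0.120% of 14113), 4 higher and 13 lower (limma, adjusted p under 0.05). In H1703, 16 of these 17 had the same sign. Of all tested genes, 43.7% were higher in 3D in H1703. The share of all genes with the same sign in H1703 and the others was not counted, so such counts are descriptions only. BNIP3L, a mitophagy receptor induced by hypoxia, rose in the other lines by 1.09 ± 0.33 (SD, n = 7 lines; limma adjusted p = 0.0351) and was 1.78 higher in H1703. CENPI, a centromere protein, fell in the other lines (mean -1.16 ± 0.30, SD, n = 7 lines; limma adjusted p = 0.0212) and was at -1.35 in H1703. GNL3L, a nucleolar GTPase, was at -1.19 in H1703 and -1.31 in the others. The exception was ALMS1-IT1, a transcript from an intron of ALMS1, at -0.26 in H1703 and 1.23 in the others. The number of genes called rested on the lines used: without A427 the fit called 319, of which 287 had the same sign in H1703, and without H23, H358 or H1437 it called 0.

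Hypoxia response genes split in H1703. Of 29 tested, 22 were higher in 3D and 9 at least 2-fold higher, against 43.7% and 1.25% of all tested genes. The median difference was 0.62, against -0.04 over all genes. The medians of the other lines lay between 0.38 and 0.78, so the list as a whole stood within their range. PDK1, a kinase of pyruvate dehydrogenase, went from -2.60 to -0.01, a difference of 2.59. In the other lines that difference was 0.28 at the lowest, 0.78 at the median and 2.96 at the highest (H661). BNIP3, a mitophagy receptor, went from -1.14 to 1.42, a difference of 2.57, just above every other line (-0.18 to 2.42, median 1.13). P4HA1, a collagen prolyl hydroxylase, differed by 2.29, also above every other line (0.16 to 2.05), and by 1.15 with its dim probe sets averaged in. SLC2A1, the glucose transporter GLUT1, differed by 2.36 and FAM162A by 2.16, both within the range of the others. With dim probe sets averaged in, SLC2A1 differed by 1.29. These genes had been low in H1703 on plastic: SLC2A1 stood at -3.52 in 2D and PDK1 at -2.60, against a lowest other array of -3.25 and -2.60.

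At the other end of the same list, some genes that rose in the other lines were lower in H1703. ADM (-0.35) and STC2 (-0.05) were lower in H1703 but also lower on average in the others (-0.50 and -0.40). PFKFB3 was at -0.49, against a mean of 0.31. The 4 genes that follow were picked for their contrast with the other lines. ALDOC, a glycolytic aldolase, went from -1.60 in 2D to -2.93 in 3D, a difference of -1.34. It was higher in 3D in 6 of the 7 other lines, where the difference ran from -0.19 through a median of 1.55 to 4.19. ANGPTL4, a secreted inhibitor of lipoprotein lipase, differed by -0.55, against a mean of 1.58 ± 1.11 (SD, n = 7 lines) and a lowest value of -0.07 in the others. EGLN3, an oxygen sensor that marks hypoxia-inducible factors for degradation, differed by -0.24 and NDRG1 by -0.07, against means of 1.07 and 1.17. The NDRG1 value was close to the median over all genes (-0.04). In all 4 genes H1703 lay below each of the other 7 lines. STC1, stanniocalcin, a secreted glycoprotein outside that list, went the same way, at -0.65 in H1703 and between 0.19 and 3.11 in the others. For none of these did the test of the difference pass (limma, adjusted p of 0.999 for ALDOC).

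**Figure D4:**
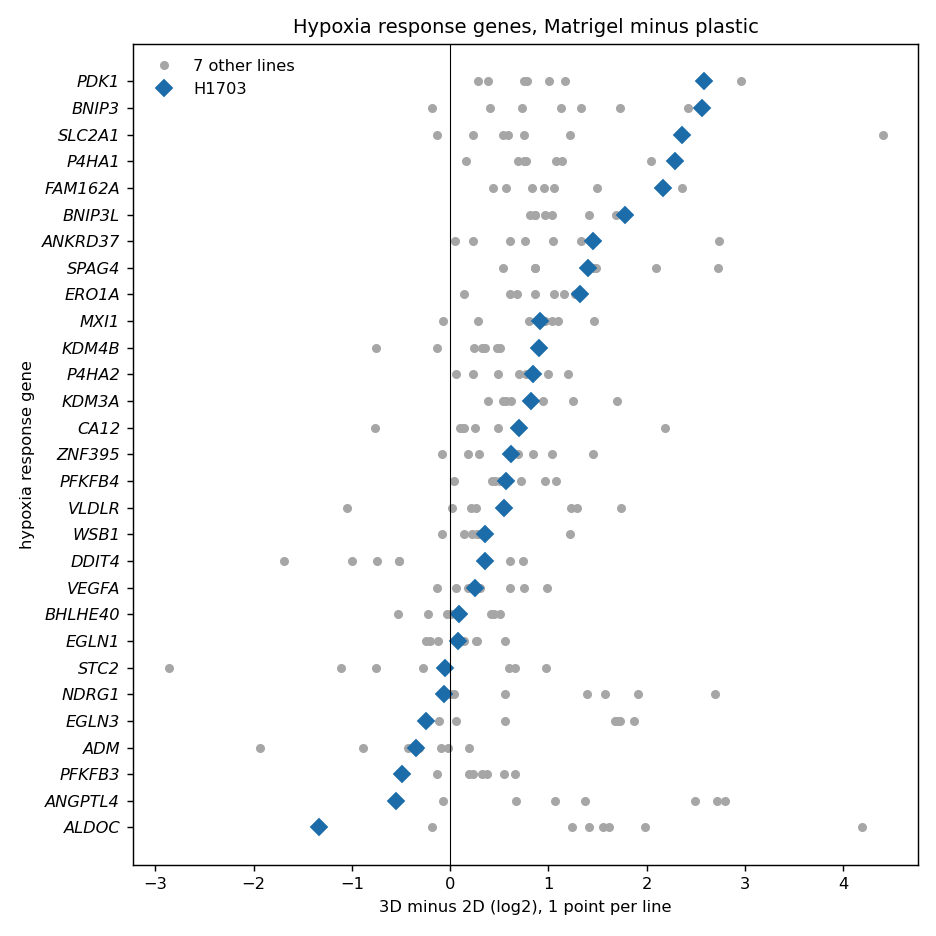
3D minus 2D (log2) of the 29 tested hypoxia response genes, ordered by the value in H1703. Diamonds are H1703 and grey circles the other 7 lines. H1703 lies at 2.59 for PDK1 and 2.57 for BNIP3, and at -0.55 for ANGPTL4 and -1.34 for ALDOC it lies to the left of all other lines.

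Promoters of both kinds of member hold the core of the hypoxia response element. The 250 bases before the gene start (RefSeq, GRCh38.p14) were searched for ACGTG and GCGTG on either strand, counting overlapping matches. At least 1 match was present in 42.6% of all 27305 promoters, in 54.5% of those of tested genes and in 19 of 24 tested hypoxia genes with a promoter in the table. It was present in 5 of the 7 that were at least 2-fold higher in H1703 and in 5 of the 6 below 0. Those 6 include ADM and STC2, which were also lower on average in the other lines. ACGTG alone was present in 22.1% of the promoters of tested genes, in 5 of those 7 and in 2 of those 6. The windows of PDK1 and SLC2A1 held neither core. The promoters of 2 members that were higher in H1703 (BNIP3, chr10:131981924-131982173, and P4HA1, chr10:73096867-73097116, both on the minus strand) and of 2 that were lower (ALDOC, chr17:28576896-28577145, minus strand, and ANGPTL4, chr19:8363905-8364154, plus strand) are shown 5′ to 3′ with each match in capitals, so that the 2 pairs can be compared.
BNIP3: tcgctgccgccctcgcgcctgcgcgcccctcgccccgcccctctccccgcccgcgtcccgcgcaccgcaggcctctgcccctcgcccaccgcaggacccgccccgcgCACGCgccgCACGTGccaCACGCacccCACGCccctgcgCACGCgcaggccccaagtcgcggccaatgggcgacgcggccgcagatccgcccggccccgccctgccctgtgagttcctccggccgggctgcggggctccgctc
P4HA1: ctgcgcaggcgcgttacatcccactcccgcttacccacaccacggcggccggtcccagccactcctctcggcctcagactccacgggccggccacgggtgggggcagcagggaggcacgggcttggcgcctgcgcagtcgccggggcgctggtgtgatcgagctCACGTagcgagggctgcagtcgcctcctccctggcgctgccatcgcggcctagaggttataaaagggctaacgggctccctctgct
ALDOC: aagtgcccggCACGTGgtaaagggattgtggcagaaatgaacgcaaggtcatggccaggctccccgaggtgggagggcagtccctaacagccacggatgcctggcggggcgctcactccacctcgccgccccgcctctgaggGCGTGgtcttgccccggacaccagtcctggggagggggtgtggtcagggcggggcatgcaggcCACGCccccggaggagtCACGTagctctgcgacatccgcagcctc
ANGPTL4: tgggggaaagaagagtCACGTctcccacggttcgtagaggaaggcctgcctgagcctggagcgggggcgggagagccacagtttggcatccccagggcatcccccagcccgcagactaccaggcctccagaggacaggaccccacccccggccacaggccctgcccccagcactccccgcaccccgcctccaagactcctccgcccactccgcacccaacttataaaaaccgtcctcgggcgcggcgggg
BNIP3 has 6 matches and ALDOC 5, P4HA1 and ANGPTL4 have 1 each, and in BNIP3 and ALDOC 1 palindrome is read on both strands. A match is not evidence of binding.

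The gene with the largest difference in H1703 was PDK3, another pyruvate dehydrogenase kinase. It went from -2.24 to 0.67, a difference of 2.91, while the other lines ranged from -0.27 through a median of 0.28 to 1.51. Its 5 probe sets gave differences from 0.99 to 3.69. Of the glycolysis genes, 4 of 19 were at least 2-fold higher (SLC2A1, ENO2 at 1.82, GPI at 1.78 and PGK1 at 1.06), 1 lower (ALDOC), with a median of 0.28. GPI, glucose phosphate isomerase, exceeded the highest other line (1.08).

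AKR1C3 and AKR1B10, aldo-keto reductases that reduce carbonyls and steroids, were higher in 3D by more than in any other line. AKR1C3 went from -3.40 to -1.09, a difference of 2.32, against 0.11 ± 0.28 (SD, n = 7 lines) and a highest value of 0.59 in the others. It rests on 1 probe set. The 2D value was like those of A427 (-3.52), H23 (-3.56) and H661 (-3.45). Even in 3D H1703 stayed far below A549, H460 and H1437, whose arrays stood between 8.62 and 9.42. AKR1B10 differed by 1.81, against -0.18 ± 0.37 and a highest of 0.45. AKR1C2 differed by 0.89, within the range of the others (highest 1.07). AKR1C1 differed by 0.84 (highest other 0.39), with probe sets from 0.03 to 1.68. Members of this family can share probe sequence. The highest AKR1B10 level in the other lines was 11.67. Of 28 tested NRF2 targets, which include this family, 17 were higher and 2 at least 2-fold, with a median of 0.13. Over all tested genes 43.7% were higher and 1.25% at least 2-fold, with a median of -0.04.

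Metallothioneins, small proteins that bind zinc and copper, were higher in 3D in 8 of 8 tested members, against 43.7% of all tested genes. Their median was 0.91. The other lines had medians between -0.79 and 0.90. MT1X went from -1.55 to -0.05, a larger difference than in any other line (highest 1.33). MT1E differed by 1.36 (highest other 0.43) and MT1F by 1.01 (highest other 1.43). These genes are near-identical copies and their probe sets may not be independent. Other genes among the 12 highest were the uroplakin UPK1A (2.84, with the others from 0.03 to 2.48), the butyrylcholinesterase BCHE (2.57, highest other 1.52), the long non-coding RNA PCAT6 (2.31), the interferon-induced IFITM1 (2.24) and HLA-DMA (2.22), which loads peptide on HLA class II, and CFAP96 (2.19). LRCH2 differed by 2.02, against a highest other value of 0.14.

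Of 19 tested matrix proteases and their regulators, 6 were at least 2-fold lower and none at least 2-fold higher. The median was -0.20, against -0.04 over all genes and -0.27 to 0.26 in the other lines. MMP1, interstitial collagenase, went from 1.38 in 2D to -1.26 in 3D, a difference of -2.63. In the other lines it ran from -2.77 (H661) through a median of 0.16 to 2.10 (A549), so H661 and H1703 went one way and A549 the other. MMP14, the membrane-bound activator of MMP2, went from 1.63 to 0.33, a difference of -1.30, against 0.01 ± 0.20 (SD, n = 7 lines) and a lowest value of -0.27. On plastic it lay far above the highest of the 14 other arrays (0.32), and in Matrigel next to it. MMP9 differed by -1.22 (lowest other -0.65), SERPINE2, a serpin of plasminogen activators, by -1.24 (lowest other -0.51), MMP10 by -1.50 and ADAM19 by -1.05, the last 2 within the range of the others.

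The 12 lowest held several secreted or signalling proteins. TRAF3IP2, an adaptor of the interleukin-17 receptor, went from -0.92 to -3.36, a difference of -2.44, with the others from -0.19 to 1.62, and by -1.17 with its dim probe sets averaged in. GAL, the neuropeptide galanin, differed by -2.13 (others -1.83 to 1.27), and by -1.06 with dim probe sets averaged in. IL32, an inflammatory cytokine, differed by -1.98 (others -1.08 to 1.18). IL31RA, a cytokine receptor, differed by -1.68, beyond a lowest other value of -0.52, and by -0.80 with dim probe sets averaged in. IGFBP3, which binds insulin-like growth factors, was not among the 12 lowest but among the 6 lowest against the other lines. It differed by -1.28 and was higher in 5 of the other lines, up to 3.04. HINT3 had the lowest mean, -2.67, but its 3 probe sets ran from -5.26 to -0.76, and MRTO4, a ribosome assembly factor, was at -1.56 beside -1.48 ± 0.92 (SD, n = 7 lines) in the others, and at -0.84 on its best probe set.

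**Figure D5:**
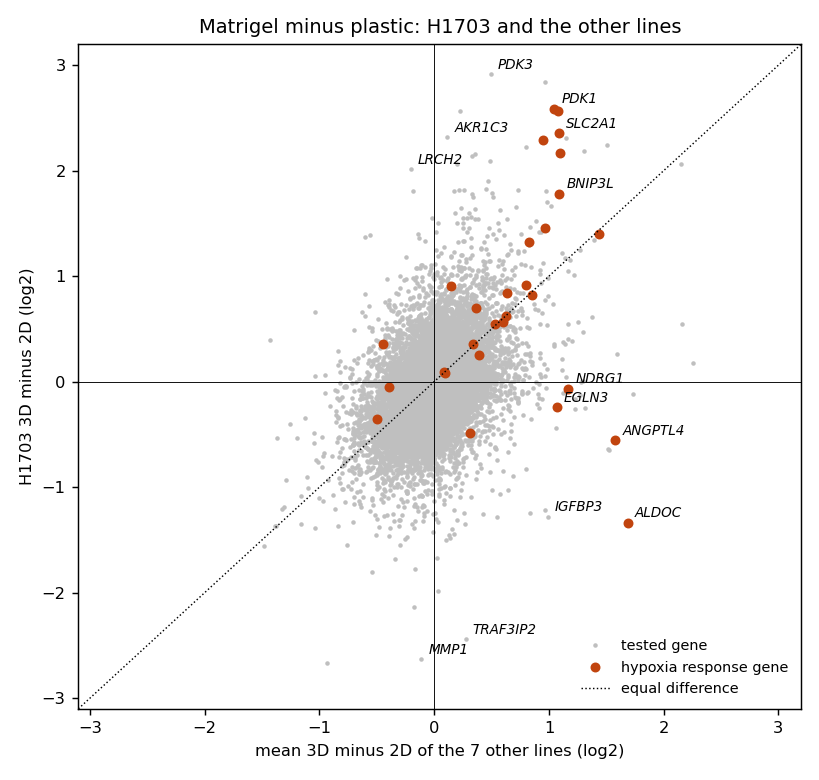
3D minus 2D in H1703 (vertical axis, log2) against the mean of that difference over the other 7 lines (horizontal axis, log2). Grey points are tested genes, red points the tested hypoxia response genes, and the dotted line marks equal differences. PDK1 and SLC2A1 lie high on both axes, PDK3, AKR1C3 and LRCH2 lie far above the line of equal differences, and ALDOC and ANGPTL4 lie at -1.34 and -0.55 with means of 1.69 and 1.58 in the others.

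Growth-related lists were lower by small amounts, where 43.7% of all tested genes were higher in 3D. In DNA replication, 2 of 36 tested genes were higher in 3D and 1 was at least 2-fold lower, with a median of -0.48, against -0.76 to -0.15 in the other lines. In mitosis the median was -0.28 and 3 of 32 were higher, against -1.04 to 0.08. Cholesterol synthesis had a median of -0.53, with 1 of 17 higher, below the medians of the other 7 lines (-0.46 to 0.19). MVD, mevalonate decarboxylase, differed most there, by -0.93. The receptors and ligands that set H1703 apart did not differ much between cultures: PDGFRA differed by 0.33 and none of the 22 tested receptor kinases and ligands reached 2-fold. Of 26 tested early response and ERK output genes, 8 were higher in 3D. Their median was -0.11, against -0.29 to 0.43 in the other lines. The 2 that were at least 2-fold higher (177 of 14113 over all tested genes) were EGR1, at 1.47, and FOS, at 1.05. Both lay within the range of the others.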

How the data were processed

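RNA of 16 cultures, 1 per line and culture, was hybridised to Affymetrix Human Genome U133 Plus 2.0 arrays (200 ng of total RNA, per the labels). The deposited values are log2 ratios of 54675 probe sets, and how the authors summarised and normalised them is not stated in the labels or the file. The reference was read from the values: the median ratio over the 16 arrays is 1 for 63.5% of probe sets and lower for the rest, which are called dim. Probe sets with 1 symbol in the platform annotation, updated through RefSeq, gave 14113 tested genes, each the mean over its probe sets that are not dim, and 5662 dim genes were not tested.

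limma 3.58.1 in R 4.3.3 (trend, Benjamini-Hochberg, threshold 0.05) was fitted over all tested genes to line means (H1703 against 7), to the 16 arrays (culture by H1703, line as block) and to the 14 arrays of the other lines (line as block). H1703 alone is assumed to vary like the others. The arrays carry no replicate, so p-values rest on the spread between lines. Each gene's variance was also drawn towards a trend on the mean ratio over genes. In some genes that trend outweighed the gene's own spread. INA had a standard error of 82.6 for H1703 against the other lines, where the SD over those lines was 3.86. AKR1B10 had 2.07 for the difference in response, against an SD of 0.37. For such genes the lack of a call says little.

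Named genes were the 12 highest and 12 lowest of each comparison with all probe sets of 1 sign, the 12 highest dim genes, the 6 highest and 6 lowest differences in response, up to 4 per list and textbook genes of the line. The rule also asked for a call in the first comparison, which was dropped because no gene was called. The genes with the lowest adjusted p and those named among the 17 called were chosen after their values were seen, as were further members within lists and runs. The members and lists were chosen with earlier results of these data known.

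Tested on simulated data, the fits recovered 36% of genes changed by 2 and 65% of those changed by 4 (log2) in H1703 against the other lines. Alternatives covered probe set choice, filter, scaling, variance model, 18S level and each other line left out.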

Additional observations from a re-analysis of the deposited data

Results flagged for a closer look

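In 2 of the genes named, the 3D minus 2D difference of H1703 was opposite in sign to that of each of the other 7 lines. ALMS1-IT1 was at -0.258 in H1703, and STC1 was at -0.648. The difference between H1703 and the other lines was tested with limma and passed for neither gene.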

How the results depend on the processing

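The count of genes called for H1703 against the other lines was 0, and 1 with all probe sets averaged, 60 with no filter, 2 with quantile normalisation, 4 without the variance trend, 7 with the line as a random block and 0 to 11 with each other line left out (11 without H661). For the difference in response it was 0, and 45 with no filter. For the other lines' own response it was 17, and 163 with the best probe set, 104 with all probe sets averaged, 40 without _s_at and _x_at probe sets, 0 with no filter, 219 with centred arrays, 55 with quantile normalisation, 3 without the trend, 170 with robust eBayes, 0 with 18S as a covariate and 0 to 319 with each line left out. Genes at 2-fold in the H1703 response were 317, and 497 with the best probe set and 532 with quantile normalisation. Genes below all 14 arrays were 311, and 483 after centring and 691 after quantile normalisation. The cause of these shifts was not tested. Of 288 values of named genes under alternatives, 273 moved by less than 1 SD over the other lines and 1 changed sign: SMARCA4, from 0.34 to -0.13 with the best probe set. Arrays give no depth, and ratios at the lowest value bound a difference from 1 side.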
